A study of Mus musculus with 2 samples.

Results

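The 8 mouse genes described here belong to MHC class II antigen presentation. They are H2-Aa, H2-Ab1 and H2-Eb1, which encode chains of the classical class II molecules, H2-DMa, H2-DMb1 and H2-DMb2, which encode chains of the peptide exchange factor H2-DM, Cd74, the invariant chain, and Ciita, the coactivator of the class II promoters. They were chosen by name and are 8 of the 32285 genes in each count matrix. Only H2-Aa, H2-Ab1 and H2-Eb1 encode surface class II chains, so the label MHC class II genes is read here as the genes of the class II route.

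The study compared lung cells of Cebpa fl/fl mice, the controls, with those of Cebpa ΔSftpc mice, which carry the same floxed allele and in which the tamoxifen-inducible Sftpc-CreERT2 deletes Cebpa in type 2 alveolar epithelial (AT2) cells. Droplet-based 3′ scRNA-Seq was done 26 weeks after the first of 5 daily injections of 75 mg/kg tamoxifen, and per the study's methods a further round of weekly injections was given for analyses later than 3 months. The methods give the 26 weeks after tamoxifen for both genotypes. Mice had mixed genetic backgrounds and per the methods were 3 months old unless stated otherwise, and their age at profiling is not stated. There were 3 mice per genotype but 1 library per genotype, and barcodes do not name the mouse, so no difference between genotypes has a replicate check and none was tested.

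Class II molecules carry peptides from endocytosed protein to the cell surface, where CD4 T cells read them. The invariant chain blocks the groove of newly made molecules, cathepsins trim it, and H2-DM releases the last fragment so that peptide can bind. Dendritic cells, B cells and macrophages are the classical presenting cells, and in the mouse lung AT2 cells and capillary endothelium are known to express class II genes as well.

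The class II genes except Cd74 and Ciita lie in the MHC on chromosome 17 (GRCm38, GENCODE mouse release 21). On the plus strand are H2-DMa (chr17:34119541-34139101), H2-DMb2 (chr17:34143307-34151555), H2-DMb1 (chr17:34153072-34160230), H2-Ab1 (chr17:34257689-34269419) and H2-Eb1 (chr17:34305867-34316674). H2-Aa (chr17:34282744-34287823) is on the minus strand. Ciita lies at chr16:10480059-10528418 on the plus strand. The gene identifiers in the matrices matched those of the annotation for all 8.

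Ciita acts through factors bound to short conserved elements upstream of class II genes, called the X and Y boxes. The promoter stretches below are shown because the levels of most of these genes went together across cell classes, H2-DMb2 least closely. No link between the letters and the levels was tested. The stretches come from RefSeq on GRCm38.p6, which held promoters for H2-Aa, H2-Eb1, H2-DMa, H2-DMb1 and H2-DMb2. Those of H2-DMa are not shown. The stretches are written 5′ to 3′ on the strand of the gene. Capitals mark GATTGG, the core of the Y box, and AACNGATGATGCT, the longest word that the H2-Eb1, H2-DMb1 and H2-DMb2 promoters share upstream of the start with 1 free letter, which has the form of an X box. The H2-DMb1 stretch is cut to 30 bases because it lies in an exon of the GENCODE annotation. The H2-DMb2 stretch lies inside the GENCODE span of that gene, outside its exons. It is upstream only of the RefSeq start, which lies downstream of the GENCODE start.
H2-Aa: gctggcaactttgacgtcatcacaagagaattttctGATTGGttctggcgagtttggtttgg
H2-Eb1: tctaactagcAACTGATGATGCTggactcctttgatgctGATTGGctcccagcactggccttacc
H2-DMb1: AACTGATGATGCTaggctgattcactcagt
H2-DMb2: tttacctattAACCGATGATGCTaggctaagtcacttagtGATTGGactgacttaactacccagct

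These stretches are chr17:34287847-34287908 (minus strand), chr17:34305768-34305832, chr17:34153099-34153128 and chr17:34145118-34145183 (plus strand). GATTGG began 49 bases upstream of the RefSeq start in H2-Aa, 60 in H2-Eb1, 62 in H2-DMb1, outside the stretch shown, and 91 in H2-DMb2. From the start of AACNGATGATGCT to the start of GATTGG there were 29 bases in H2-Eb1 and 30 in both H2-DMb1 and H2-DMb2. Searched on both strands, GATTGG was in 16.1% and AACNGATGATGCT in 0.0152% of 32851 promoters of the same length. The latter share follows in part from the choice of the word, and 3 of its 5 promoters are those it was taken from. A match describes letters and is no evidence of binding.

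Each captured RNA carries a unique molecular identifier (UMI), so a UMI count is a count of molecules. Cells were assigned to classes by raw counts of marker genes, none of them an MHC class II gene. A level is the UMIs of a gene per 1000000 UMIs (CPM), summed over the cells of a class in 1 library, with an exact Poisson 95% interval, and a ratio is log2 of the Cebpa ΔSftpc level over the Cebpa fl/fl level with an exact 95% interval. Intervals cover counting error and leave out any spread between mice or libraries.

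After filtering, the libraries held 11487 Cebpa fl/fl cells with a median of 4835 UMIs and 13238 Cebpa ΔSftpc cells with a median of 2607 UMIs. They shared 45 barcodes. A class could be given to all but 22.2% and 28.5% of the cells. Cebpa, the targeted gene, was at 155 CPM (147 to 163) in 450 Cebpa fl/fl AT2 cells and at 124 CPM (106 to 143) in 188 Cebpa ΔSftpc AT2 cells. The sources used here do not say whether the 3′ tags of Cebpa lie in the deleted part. The paper reports reduced Cebpa by immunostaining, qPCR and Western blot at an earlier time after tamoxifen. At about the time of these libraries it reports reduced Cebpa by immunostaining in lineage-traced cells of other Cebpa-deleted mice. Over all cells, the 8 genes summed to 1903 CPM in the Cebpa fl/fl and 4190 CPM in the Cebpa ΔSftpc library, in which B cells were 0.392% and 2.24% and macrophages 0.226% and 3.69% of the cells.

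Macrophages with C1q genes and B cells held the highest levels in the Cebpa fl/fl library, with AT2 cells next among the large classes. In the Cebpa fl/fl library the summed level was 35443 CPM (34256 to 36660) in 23 C1q macrophages, gated with complement C1q genes among the markers, and 25242 CPM (24671 to 25824) in 45 B cells. Monocytes, at 5837 CPM (5431 to 6265) in 16 cells, and AT2 cells, at 5543 CPM (5494 to 5591), did not differ beyond counting error. General capillary cells, the more common capillary endothelium, were at 2147 CPM (2127 to 2167) in 4216 cells.
Well below them were aerocytes, the capillary cells specialised for gas exchange, at 214 CPM (205 to 224) in 1335 cells. T or NK cells, which should not express these genes in the mouse, were at 105 CPM (68.5 to 154) in 31 cells. Fibroblasts were at 94.9 CPM (86.6 to 104) in 565 cells, within the interval of T or NK cells.

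In the Cebpa ΔSftpc library 80 dendritic cells stood first at 42581 CPM (42199 to 42966). C1q macrophages followed at 29764 CPM (29246 to 30289) in 83 cells, and B cells at 23129 CPM (22906 to 23354) in 296 cells. AT2 cells were at 5138 CPM (5021 to 5257) and 401 alveolar macrophages at 4331 CPM (4268 to 4395). The order of C1q macrophages, B cells, AT2 cells, general capillary cells and aerocytes was the same in both libraries. General capillary cells were at 3539 CPM (3505 to 3573), aerocytes at 488 CPM (473 to 505), fibroblasts at 429 CPM (404 to 455) and T or NK cells at 286 CPM (265 to 308). The gap between aerocytes and fibroblasts was 2.26-fold in the Cebpa fl/fl and 1.14-fold in the Cebpa ΔSftpc library.

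**Figure D1:**
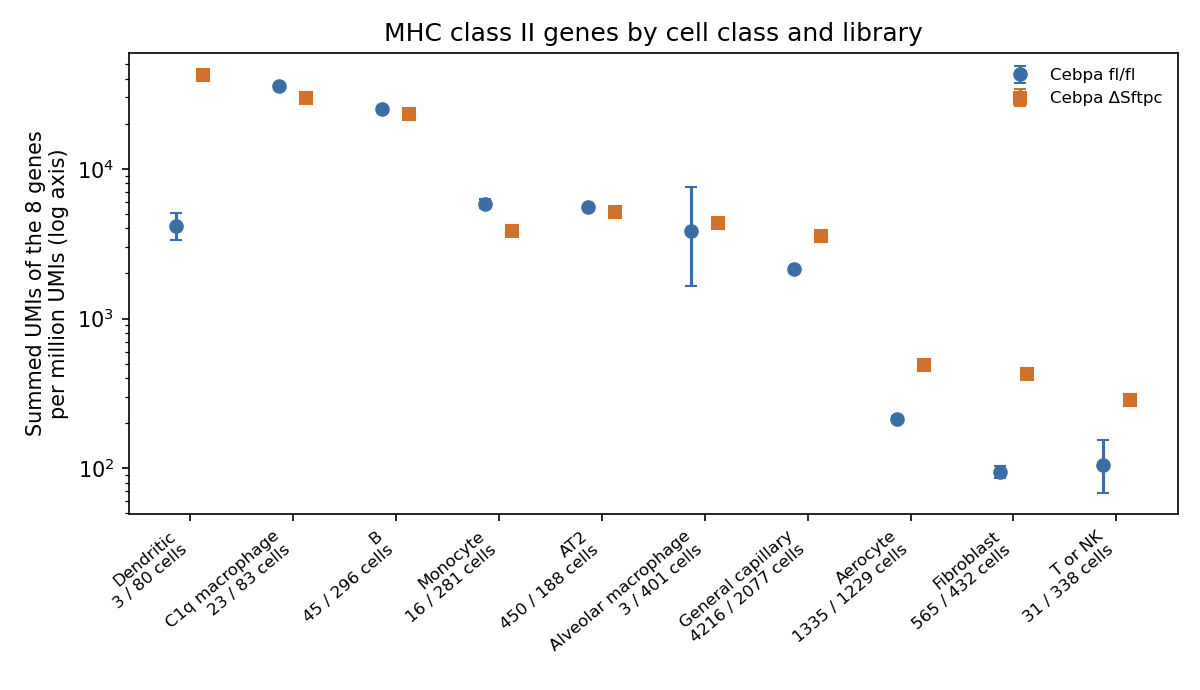
Summed level of the 8 genes (y axis, CPM, log axis) in 10 cell classes (x axis, with the number of cells in the Cebpa fl/fl / Cebpa ΔSftpc library). Points are class sums of 1 library (circles Cebpa fl/fl, squares Cebpa ΔSftpc) and bars exact Poisson 95% intervals, hidden by the point where small. The Cebpa fl/fl points of dendritic cells and alveolar macrophages rest on 3 cells each.

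Dendritic cells. The 80 dendritic cells of the Cebpa ΔSftpc library had H2-Aa at 7125 CPM (6969 to 7283), H2-Ab1 at 8470 CPM (8300 to 8643) and H2-Eb1 at 6950 CPM (6796 to 7106). Cd74 was at 18117 CPM (17868 to 18369). In single cells the 8 genes made 1.02 to 88.6 UMIs per 1000, with a median of 40.8. Ciita was at 191 CPM (166 to 219), against 175 CPM (156 to 195) in B cells of the same library, and these intervals overlap.

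Within these cells, 28 with Xcr1 or Clec9a, markers of cross-presenting dendritic cells, and without Cd209a and Clec10a had a summed level of 38017 CPM (37427 to 38613). The 27 cells with Cd209a or Clec10a and without Xcr1 and Clec9a were higher, at 57645 CPM (56824 to 58475). H2-DMb2 was at 52.8 CPM (33.1 to 79.9) in the former and 300.5 CPM (243.9 to 366.2) in the latter. H2-DMb1 went the other way, at 753 CPM (672 to 841) and 524 CPM (449 to 609). The 19 cells with the chemokine gene Ccl22, which could also belong to either subset, had a summed level of 47670.5 CPM (46856 to 48495).

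Only 3 cells of the Cebpa fl/fl library passed the dendritic gate, with 35, 3 and 56 UMIs of the 8 genes among 7236, 1957 and 13471 UMIs. Each held Flt3, a growth factor receptor of dendritic cells, and Ccl22, a chemokine of mature dendritic cells, and 1 held Xcr1, but none held Clec9a, Cd209a or Clec10a. Their summed level of 4148 CPM (3352 to 5076) was below that of AT2 cells, and H2-DMb1, H2-DMb2 and Ciita were at 0, where 3 counts would be 132 CPM. The log2 ratio of the sums was 3.36 (3.07 to 3.67). It describes 3 cells against 80, and was 1.02 with 1 more distinct marker required (4 and 67 cells) and 0.65 with cells of 2 classes kept (5 and 105 cells).

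B cells. The class II chains, which B cells express at rest, were close in both libraries. H2-Aa was at 3747 CPM (3529 to 3975) in the Cebpa fl/fl and 3570 CPM (3483 to 3659) in the Cebpa ΔSftpc library, and H2-Eb1 at 3356 CPM (3149 to 3572) and 3342 CPM (3258 to 3428). H2-Ab1 was slightly higher in the Cebpa ΔSftpc cells, with a log2 ratio of 0.19 (0.09 to 0.29). Cd74 was slightly lower, at 13868 CPM (13446 to 14301) and 11443 CPM (11286 to 11601). The counting interval of the log2 ratio ran from -0.16 to 0.02 for H2-Aa and from -0.10 to 0.09 for H2-Eb1.

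Ciita was the exception in B cells. The 45 Cebpa fl/fl cells held 24 UMIs of it, 81.7 CPM (52.3 to 122), and the 296 Cebpa ΔSftpc cells 310 UMIs, 175 CPM (156 to 195), a log2 ratio of 1.10 (0.50 to 1.76). After each cell was thinned to 1000 UMIs, Ciita was seen in 6.82% (1.43 to 18.7) of 44 and 11.6% (8.20 to 15.9) of 292 B cells, and unthinned in 35.6% and 55.4%. The thinned shares overlap in their intervals. Ciita was the 1 of the 8 genes past 2-fold, against 4.64% of the 5089 genes with at least 50 UMIs past 2-fold upward and 1.14% downward. It reached 50 UMIs only through the Cebpa ΔSftpc cells, which were more numerous. The median log2 ratio was -0.04 over the 8 genes and 0.04 over those 5089.

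H2-DMb2 against H2-DMb1. H2-DM pairs an alpha chain from H2-DMa with a beta chain from H2-DMb1 or H2-DMb2, and the balance of the beta genes was unlike in B cells and the other classes. Since 3′ tags count 1 per molecule, the share was not divided by length. H2-DMb2 gave 150 of 191 beta chain UMIs in Cebpa fl/fl B cells, 78.5% (72.0 to 84.1), and 770 of 961, 80.1% (77.5 to 82.6), in Cebpa ΔSftpc B cells. The share thus differed by less than counting error between libraries.

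In AT2 cells H2-DMb2 gave 31 of 951 beta chain UMIs, 3.26% (2.23 to 4.595), in Cebpa fl/fl and 9 of 126, 7.14% (3.32 to 13.1), in Cebpa ΔSftpc mice. In general capillary cells it gave 6 of 2427, 0.247% (0.0908 to 0.537), and 42 of 1500, 2.80% (2.03 to 3.77). B cell markers in general capillary cells summed to 2.48 and 45.9 CPM. The part of B cell RNA in the shares of other classes was not tested. C1q macrophages had 0 of 24 and 2 of 163. Dendritic cells of the Cebpa ΔSftpc library lay between, at 139 of 873 or 15.9% (13.6 to 18.5), and alveolar macrophages had 36 of 947 or 3.80% (2.68 to 5.22). No interval of another class in the plot of this share overlapped those of B cells.
H2-DMb1 and H2-DMb2 are near copies. Of the 50-base words in the last 500 bases of H2-DMb1 transcripts, 20.4% also occur in H2-DMb2 transcripts, and 0% the other way, so some H2-DMb1 reads could not be assigned and its level is uncertain.

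**Figure D2:**
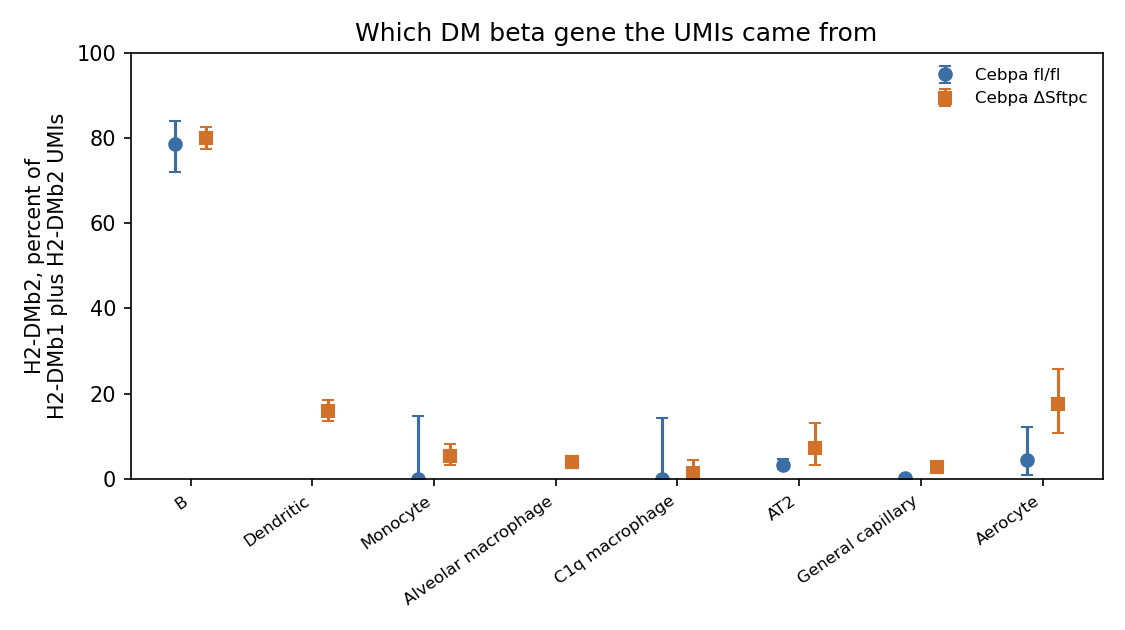
Share of H2-DMb2 (y axis, percent) among the UMIs of H2-DMb1 plus H2-DMb2 in 8 cell classes (x axis), for classes with at least 20 such UMIs in a library. Circles are Cebpa fl/fl and squares Cebpa ΔSftpc, and bars are exact binomial 95% intervals. B cells are at 78.5% and 80.1%, and the next highest class drawn, aerocytes of the Cebpa ΔSftpc library, is at 17.4%. B cell markers summed to 32.5 CPM in those aerocytes, and the part of B cell RNA in the shares was not tested.

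Macrophages. Taken as 1 class, macrophages had 34762 CPM (33600 to 35955) in 26 Cebpa fl/fl and 6662 CPM (6587 to 6737) in 488 Cebpa ΔSftpc cells, a log2 ratio of -2.38 (-2.43 to -2.33). The mix of the class differed: 23 of the 26 but only 83 of the 488 were C1q macrophages. Alveolar macrophages, the resident cells of the airspace, were 3 and 401. Of the 7 genes with at least 50 UMIs, 4 were past 2-fold lower and none higher, against 19.6% and 11.9% of 8242 genes.

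Within C1q macrophages the levels were close. H2-Aa was at 5933 CPM (5454 to 6444) and 5657 CPM (5432 to 5888), H2-Eb1 at 7490 CPM (6950 to 8061) and 6196 CPM (5961 to 6438), and Cd74 at 16201 CPM (15402 to 17031) and 12314 CPM (11982 to 12654) in the Cebpa fl/fl and Cebpa ΔSftpc libraries. The log2 ratio of the sums was -0.25 (-0.31 to -0.20). None of the 6 genes with at least 50 UMIs was past 2-fold, against 2.18% of 1558 genes lower and 11.9% higher.
A single Cebpa fl/fl cell held 30.4% of the class's MHC class II UMIs, and without the top cell of each library the levels were 28612 and 28310 CPM. Single C1q macrophages ran from 0 to 149.9 UMIs of the 8 genes per 1000 in the Cebpa fl/fl and from 0.353 to 81.7 in the Cebpa ΔSftpc library, with medians of 21.7 and 21.6. This class thus held cells at the level of dendritic cells next to cells near that of fibroblasts.

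Alveolar macrophages of the Cebpa ΔSftpc library had Cd74 at 2178 CPM (2133 to 2223), H2-Aa at 699 CPM (673 to 725) and H2-Eb1 at 367 CPM (349 to 386). The C1q macrophages of that library were 6.87-fold (6.72 to 7.03) above them in the sum. The gap was narrower for H2-DM: H2-DMa was at 398 CPM (340 to 462) in C1q and 256 CPM (241 to 272) in alveolar macrophages, and H2-DMb1 at 381 CPM (324 to 445) and 221 CPM (207 to 236). H2-Eb1 gave 37.4% (36.2 to 38.5) of the H2-Aa, H2-Ab1 and H2-Eb1 UMIs of C1q but 22.3% (21.3 to 23.3) of those of alveolar macrophages. The 3 alveolar macrophages of the Cebpa fl/fl library held 8 UMIs of the 8 genes among 2090, which allows no comparison by gene.

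Monocytes were at 5837 CPM in 16 Cebpa fl/fl and 3835 CPM in 281 Cebpa ΔSftpc cells. All 7 genes with at least 50 UMIs were lower in the latter, while 45.2% of 6329 genes had ratios above 0. None of the 7 was past 2-fold, against 3.27% of the 6329 genes lower and 3.79% higher. But 1 Cebpa fl/fl cell held 49.8% of the UMIs of its class. Without the top cell of each library the levels were 3083 and 3536 CPM, which reverses the direction. Medians over single cells were 0.599 and 0.872 per 1000.

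**Figure D3:**
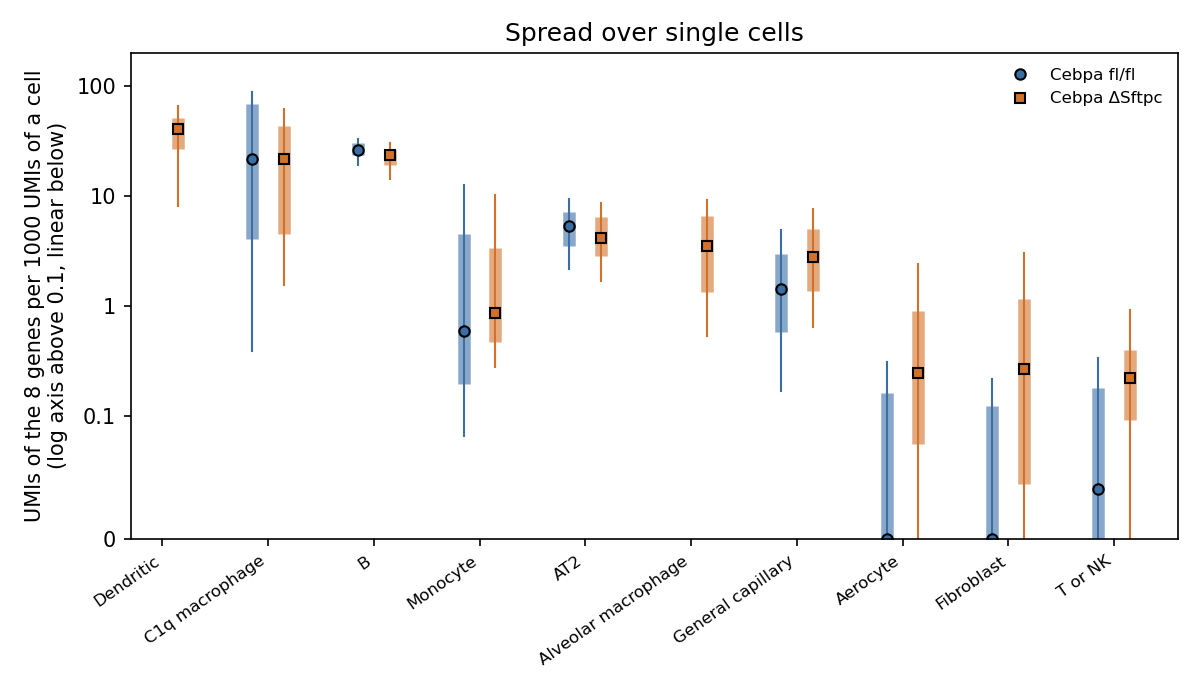
UMIs of the 8 genes per 1000 UMIs in single cells (y axis, log above 0.1 and linear below) by cell class (x axis), for classes with at least 10 cells in a library. Points are medians, thick bars the middle 50% and thin lines the 10th to 90th percentiles of cells, with circles and blue for Cebpa fl/fl and squares and orange for Cebpa ΔSftpc. B and AT2 cells are narrow, while C1q macrophages and monocytes spread widely in both libraries.

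AT2 cells. These are the cells in which Cre was driven. In those that passed the AT2 gate, class II genes were at close levels in both libraries. Cebpa itself was still at 124 CPM in the gated Cebpa ΔSftpc cells, against 155 CPM in the Cebpa fl/fl cells. How many of the gated cells had lost Cebpa is not known. The close levels are thus not shown to be those of cells without Cebpa. The gate needs AT2 markers such as Sftpc and Abca3, which the paper reports reduced after Cebpa deletion. Cells that lost these markers could therefore fail the gate, and their class II levels are not given here. Unassigned cells within a factor of 1.5 below the gate's limit numbered 14 and 31. H2-Aa was at 884 CPM (865 to 903) in the Cebpa fl/fl and 810 CPM (764 to 858) in the Cebpa ΔSftpc library, H2-Ab1 at 564 CPM (548 to 579) and 620 CPM (580 to 662), and H2-Eb1 at 392 CPM (379 to 405) and 355 CPM (324 to 387). Cd74 was at 3497 CPM (3458 to 3535) and 3157 CPM (3065 to 3251), a log2 ratio of -0.15 (-0.19 to -0.10). Ciita was at 27.4 CPM (24.1 to 31.0) and 29.5 CPM (21.3 to 39.9), which did not differ beyond counting error.

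The summed log2 ratio was -0.11 (-0.15 to -0.07). Of the 7 genes with at least 50 UMIs, 3 were above and 4 below 0, beside 63.2% of 9730 genes above 0. None of the 7 was past 2-fold, against 3.33% of the 9730 genes past it upward and 1.13% downward. Their median was -0.13 beside 0.11 over all 9730. The cells differed in depth, with medians of 21132 and 1918.5 UMIs, and in RNA of other cells. All 5 neutrophil markers were found in both libraries and summed to 2.63 and 501 CPM. Of 6 alveolar macrophage markers 2 were found in the Cebpa fl/fl and 5 in the Cebpa ΔSftpc cells, with Siglecf at 0 in both, and they summed to 0.658 and 121 CPM. With the level expected of free RNA subtracted the ratio was -0.23, and the part of depth in it was not tested. In cells without any UMI of 8 immune genes (Ctss, C1qa, C1qb, C1qc, Cd79a, Cd79b, Chil3 and Ptprc) the ratio was -0.09 (-0.17 to -0.00). These were 271 and 70 cells, 60.2% and 37.2% of the class. B cell markers, among them Cd79a and Cd79b, summed to 26.5 and 29.5 CPM in all AT2 cells. A deeper cell is more likely to hold such a UMI, so this filter also selects by depth and cannot single out immune RNA.

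Most AT2 cells held at least 1 of these genes. The lowest 10th percentile of cells was at 2.17 UMIs per 1000 in the Cebpa fl/fl and 1.71 in the Cebpa ΔSftpc library, with medians of 5.39 and 4.18. After thinning to 1000 UMIs, Cd74 was seen in 90.4% (87.3 to 92.97) of 448 and 92.4% (87.0 to 96.0) of 157 AT2 cells, with 2 and 31 shallower cells left out, and unthinned in 99.3% and 93.6%. The same share was 3.06% (1.79 to 4.86) and 25.95% (21.7 to 30.6) in fibroblasts, whose median depths were 8611 and 2870 UMIs, and unthinned 21.2% and 51.6%. The genes other than Cd74 were seen in fewer thinned Cebpa fl/fl AT2 cells, from 52.9% for H2-Aa to 0.446% for H2-DMb2. AT2 cells were 24.4-fold (20.1 to 29.9) above AT1 cells, their flat neighbours in the alveolus, in the Cebpa fl/fl library and 3.94-fold (3.23 to 4.87) in the other, where only 19 AT1 cells were found.
AT2 cells took the smallest share of classical chain UMIs from H2-Eb1 among the 5 main classes, leaving aside 3 dendritic cells: 21.3% (20.7 to 21.9) and 19.9% (18.3 to 21.5), against 32.7% (31.0 to 34.4) and 31.8% (31.1 to 32.4) in B cells and 26.9% (26.4 to 27.5) and 28.9% (28.3 to 29.6) in general capillary cells. The low share was not particular to AT2 cells. The interval given above for alveolar macrophages, a part of the macrophage class, overlaps those of AT2 cells.

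Endothelial cells. This was the class with the most cells, 7044 and 6484, and the 8 genes were higher in the Cebpa ΔSftpc library, at 1579 CPM (1567 to 1592) and 2523 CPM (2505 to 2541). The log2 ratio of the sums was 0.68 (0.66 to 0.69). All 8 genes had ratios above 0, as did 52.7% of 13548 genes with at least 50 UMIs. The 8 ratios ran from 0.01 (-0.07 to 0.08) for H2-DMb1 to 3.83 for H2-DMb2. Their median was 0.58, beside 0.02 over the 13548 genes. H2-DMb2 was the 1 gene past 2-fold, against 6.02% of all genes past it upward and 0.915% downward. It had 12 UMIs in the Cebpa fl/fl and 141 in the Cebpa ΔSftpc cells. H2-DMb2 thus reached 50 UMIs only through the library where it was higher. B cell markers summed to 2.30 and 55.2 CPM in these cells, and the part of B cell RNA in H2-DMb2 was not tested. Free RNA was expected to give 9.14% of the level in the Cebpa fl/fl and 26.1% in the Cebpa ΔSftpc library, and the ratio was 0.38 (0.36 to 0.39) after it was subtracted.

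General capillary cells held 45085 of the 59048 endothelial UMIs of the 8 genes in the Cebpa fl/fl and 41751 of the 78059 in the Cebpa ΔSftpc library. They were 4216 of the 7044 and 2077 of the 6484 endothelial cells, so the mix of the class differed. The subset was therefore also compared on its own. Endothelial cells outside the named subsets are not described separately. Cd74 was at 852 CPM (839 to 864) in the Cebpa fl/fl and 1665 CPM (1642 to 1688) in the Cebpa ΔSftpc library, and its log2 ratio was 0.97 (0.94 to 0.996). Ciita was at 30.1 CPM (27.8 to 32.6) and 54.8 CPM (50.6 to 59.1), a ratio of 0.86 (0.70 to 1.02). The classical chains were less far apart, with ratios of 0.45 (0.41 to 0.50) for H2-Aa, 0.58 (0.53 to 0.62) for H2-Ab1 and 0.66 (0.61 to 0.72) for H2-Eb1.
H2-DMa had a ratio of 0.51 (0.40 to 0.62). H2-DMb1, at 115 CPM (111 to 120) and 124 CPM (117 to 130), was nearest to level at 0.10 (0.01 to 0.19). No gene of the 7 with at least 50 UMIs was past 2-fold, against 2.93% of 11953 genes higher and 1.12% lower, while their median was 0.58 beside -0.02 for all.

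Cells at both ends of the general capillary spread were higher in the Cebpa ΔSftpc library. The 10th percentile, median and 90th percentile of UMIs of the 8 genes per 1000 were 0.169, 1.44 and 4.93 in the Cebpa fl/fl and 0.653, 2.79 and 7.59 in the Cebpa ΔSftpc library, with median depths of 4537.5 and 5186 UMIs. After thinning, Cd74 was seen in 41.5% (39.97 to 43.0) of 4179 and 66.9% (64.8 to 68.9) of 2027 cells, and unthinned in 70.7% and 90.2%. In T or NK cells, which should lack it, the thinned shares were 0 of 31, which allows up to 9.68% at 3 counts and 11.2% as the exact upper limit, and 10.5% (7.43 to 14.3) of 333, at median depths of 7425 and 7561 UMIs, and unthinned 25.8% and 48.8%.

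RNA of immune cells moved with this difference. In general capillary cells all 5 B cell and all 5 neutrophil markers were found in both libraries, and 5 and 6 of the 6 alveolar macrophage markers, with Siglecf at 0 in the Cebpa fl/fl cells. The B cell markers summed to 2.48 CPM in the Cebpa fl/fl and 45.9 CPM in the Cebpa ΔSftpc library, the alveolar macrophage markers to 0.905 and 100.4 CPM and the neutrophil markers to 6.72 and 338 CPM. The level expected of free RNA, from genes foreign to the class, was 6.28% and 8.51% of the summed level. In the cells without any UMI of the 8 immune genes, 4139 and 1008 cells, the log2 ratio was 0.73 (0.70 to 0.75), beside 0.72 (0.70 to 0.74) in all general capillary cells. These cells were 98.2% of the class in the Cebpa fl/fl but 48.5% in the Cebpa ΔSftpc library, and no neutrophil marker was among the 8 genes. No endothelial cell was left out for also passing an immune gate, so mixed droplets could remain. The part of immune RNA in the difference was not tested otherwise. In the cells without any UMI of the 8 immune genes, Cd74 was at 849.6 and 1690 CPM. H2-DMb2, with 4 and 6 UMIs there, was at 0.195 and 1.14 CPM.

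Aerocytes stood 10.0-fold (9.59 to 10.5) below general capillary cells in the Cebpa fl/fl and 7.25-fold (7.002 to 7.498) below in the Cebpa ΔSftpc library. Cd74 in aerocytes was at 85.7 CPM (79.9 to 91.9) and 227 CPM (217 to 239), and the log2 ratio of the sums was 1.19 (1.11 to 1.27). Of 7 genes, H2-Ab1, H2-DMa and Cd74 were past 2-fold higher, against 2.26% of 10647 genes higher and 0.798% lower. A single Cebpa fl/fl aerocyte held 580 of the 1997 UMIs of its library, 29.0%, and without the top cells the levels were 152 and 466 CPM.
Free RNA was expected to give 54.4% and 64.9% of the aerocyte level. In fibroblasts the log2 ratio of the sums was 2.18 (2.02 to 2.33), with 4 of 5 genes past 2-fold, against 2.15% of 10351 genes higher and 1.18% lower, and expected shares of 100.3% and 62.2%. T or NK cells had 3 of 5 past 2-fold, which had 4 (H2-Ab1), 2 (H2-Eb1) and 9 (Cd74) UMIs in the Cebpa fl/fl cells and reached 50 through 111, 94 and 282 in the Cebpa ΔSftpc cells, against 5.53% of 5861 genes higher and 1.96% lower, with expected shares of 65.2% and 82.4%. The part of free RNA in these differences was not tested further.

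**Figure D4:**
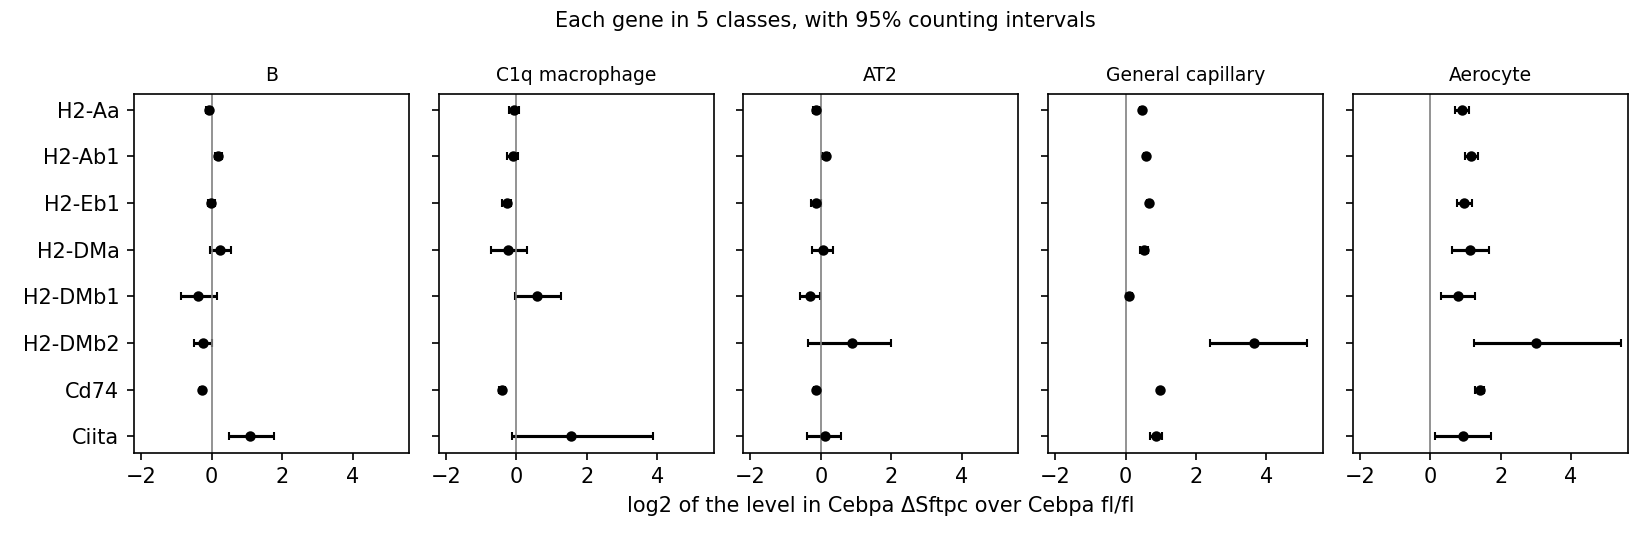
Log2 ratio of the Cebpa ΔSftpc over the Cebpa fl/fl level (x axis) for each of the 8 genes (y axis) in 5 cell classes (panels), with exact 95% counting intervals and 1 library per genotype. H2-DMb2 is left out for C1q macrophages, where it had 0 and 2 UMIs. In general capillary cells and aerocytes every point is above 0, beside 47.5% and 52.8% of all genes with at least 50 UMIs. The points of AT2 cells and B cells lie on both sides of 0.

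Other genes of the class II route. A list of 22 genes covered other class II genes, promoter factors, interferon-gamma signalling, processing, costimulation and turnover. In AT2 cells 14 of the 22 had at least 50 UMIs, with a median log2 ratio of 0.22 beside 0.11 over all genes. None of the 14 was past 2-fold, against 3.33% of all genes past it upward and 1.13% downward. In B cells 1 of 18 was past 2-fold, near the 4.64% of all genes past it upward. It was Cd40, a receptor for T cell help, at 30.6 and 63.6 CPM with a ratio of 1.05 (0.08 to 2.22). Cd40 had 9 and 113 UMIs and reached 50 only through the Cebpa ΔSftpc cells. March1, a ligase that turns over surface class II, was just inside it at 0.96 (0.44 to 1.53). H2-Oa and H2-Ob, which encode the inhibitor of H2-DM in B cells, had ratios there of 0.05 (-0.34 to 0.45) and -0.07 (-0.32 to 0.18).

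In general capillary cells 2 of 17 were past 2-fold, both higher in the Cebpa ΔSftpc library, beside the 2.93% of all genes past it upward. Ctss, the cathepsin that trims the invariant chain in leukocytes, was at 1.05 and 19.6 CPM, from 22 and 231 UMIs. It reached 50 UMIs only through the Cebpa ΔSftpc cells. It is also one of the 8 immune genes by which cells were left out, and immune markers moved with it. H2-Ob was at 3.05 and 7.63 CPM. Of the other processing genes, the cathepsin Ctsl had a ratio of -0.38 (-0.45 to -0.32) and the protease Lgmn -0.35 (-0.48 to -0.21). Ifi30, also a processing gene, went the other way at 0.29 (0.05 to 0.53). All 7 promoter factors had at least 50 UMIs and none was past 2-fold. Rfx5, part of the X box complex, had a ratio of 0.07 (-0.24 to 0.38).
Among the genes of interferon-gamma signalling, which induces Ciita, Ifngr1, a receptor chain, had a ratio of 0.34 (0.29 to 0.40). Ifngr2, the other receptor chain, had -0.15 (-0.27 to -0.03), and Irf1, a transcription factor of this response, 0.16 (0.08 to 0.24). In C1q macrophages none of the 7 measurable genes was past 2-fold, against 11.9% of all genes higher and 2.18% lower.

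Genes with the most similar pattern were sought over 30 class sums of at least 15 cells, from 15460 genes on the scale log2(CPM + 10). Against the mean of H2-Aa, H2-Ab1, H2-Eb1 and Cd74, Pearson's r was 0.95 for H2-DMa, 0.93 for H2-DMb1 and 0.89 for Ciita, and 0.60 for H2-DMb2. The 10 other genes with the highest r were Cd83, Tnfrsf13b, Fcgr2b, Gm42031, Ly86, Ifi30, Cd86, Fgd2, Cd180 and Unc93b1, from 0.82 for Cd83 to 0.77 for Unc93b1. Points of 1 library share its free RNA and depth, and classes with few cells weigh as much as large ones.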

How the data were processed

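Lung cells were profiled by 10x 3′ scRNA-Seq, 1 library per genotype. The authors deposited UMI counts per gene and barcode, made by Cell Ranger on mm10 and not normalized. The file header names version 5.0.0, and the submitters' processing notes 6.1.1. The labels speak of a FACS method and the methods of whole-lung suspensions, and whether cells were sorted is unclear.

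Barcodes with under 200 genes or over 20% mitochondrial counts were left out. A cell joined a class by its number of distinct markers and its marker UMIs per 1000 UMIs: at least 2 and 0.5 for dendritic, 3 and 2 for B, 3 and 4 for both macrophage gates, 4 and 32 for AT2, and 4 and 8 for endothelial cells. Other classes needed under 4 endothelial marker UMIs per 1000, and cells of 2 classes, 15 and 139, were left out. Endothelial cells could not count as cells of 2 classes, so this rule removed no endothelial cell mixed with an immune cell. General capillary cells needed 2 distinct markers at 2 per 1000 with aerocyte markers under 1, and aerocytes 2 at 4 with general capillary markers under 2. Limits were set on marker counts after these were seen. Members and lists were chosen with earlier results of these data known. The named genes are the 8 members, the 22-gene list and the 10 genes of most similar pattern. Some genes of these lists are not reported here.

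Ratios used sums floored at 3 counts, and genes needed 50 UMIs over both libraries to be counted past 2-fold. The ratio was tested on simulated sums with counting error alone, the model its interval assumes. That test therefore says nothing about spread between cells, mice or libraries, or about free RNA. Free RNA was estimated from the median, over genes of other cell types, of the class level over the library level. Doublets were kept, since Scrublet's automatic threshold called 0 cells, and its top 8% of scores were left out as an alternative. Scripts ran in Python 3.11.15 with scanpy 1.11.5, scipy 1.17.1, pandas 2.3.3, matplotlib 3.10.9 and numpy 2.4.6.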

Additional observations from a re-analysis of the deposited data

Results flagged for a closer look

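The summed level of the 8 genes went in opposite directions in different cell classes, which is why these results are singled out. The log2 ratio of Cebpa ΔSftpc over Cebpa fl/fl was above 0 in dendritic cells (3.36) and endothelial cells (0.676), and below 0 in B cells (-0.126), macrophages (-2.38) and AT2 cells (-0.109). The difference between classes was not tested, with 1 library per genotype. The dendritic value rests on 3 Cebpa fl/fl cells, and the macrophage class held 23 C1q macrophages of 26 cells in one library and 83 of 488 in the other. The ratio was -0.25 in C1q and 0.18 in alveolar macrophages alone, the latter with an interval that spans 0. The values of B cells and AT2 cells were small. A contrast of direction between the classes thus rests on little.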

How the results depend on the processing

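Values are log2 ratios of the summed level. For dendritic cells the ratio was 1.02 with 1 more distinct marker required, in the gates of all classes, and 0.65 with cells of 2 classes kept. The other alternatives gave 3.29 to 3.37 but rest on 1 to 3 Cebpa fl/fl cells. With the cells scored as doublets left out, 1 Cebpa fl/fl cell was set against 80. So few cells do not show that the ratio is stable. For B cells it stayed between -0.15 and -0.10. For macrophages it was -2.52 when cells needed 500 genes and no more than 10% mitochondrial UMIs, -2.48 with at least 3000 UMIs, -2.50 with 1 more marker, -2.24 with cells of 2 classes kept and -2.45 with free RNA subtracted. Alternatives chosen after seeing the data gave -2.12 without the cell with most of these UMIs, -0.25 for C1q macrophages alone and, reversed, 0.18 for alveolar macrophages alone, whose interval of -0.80 to 1.39 spans 0. For AT2 cells it was -0.23 with free RNA subtracted and -0.21 with hemoglobin, surfactant protein and secretoglobin UMIs out of the denominator, and, chosen after seeing the data, -0.19 with the AT2 gate at 64. For endothelial cells it was 0.61 with the cells scored as doublets left out and 0.38 with free RNA subtracted, and, chosen after seeing the data, 0.72 without cells holding a UMI of 8 immune genes, 0.72 for general capillary cells and 1.19 for aerocytes. Where no cause is given by the cells kept or the subtraction itself, the cause was not tested. No paired analysis was possible because each genotype had 1 library. Depth limits genes with few UMIs, such as Ciita in C1q macrophages and H2-DMb2 in general capillary cells, and classes under 50 cells in the Cebpa fl/fl library.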
